A study of Mus musculus with 16 samples.

Results

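Transcripts of the nuclear genes for respiratory complexes II, III, IV and V were followed while labelled RNA was chased out of mouse leukemia cells. Genes were chosen by symbol: Sdha to Sdhd for complex II, all Uqcr genes and Cyc1 for complex III, the Cox4 to Cox8 genes for complex IV and the Atp5 genes for complex V. The rule matched 48 of 21177 genes, and the 40 genes whose interval had a mean CPM (reads scaled to library size, averaged over all libraries by the authors) of at least 1 were kept, 4 of complex II, 9 of complex III, 12 of complex IV and 15 of complex V. All 40 passed the filter for testing, a rate above 0 in at least 12 of 16 libraries, as did 7411 genes in all. The 8 matching genes below the CPM minimum were Cox4i2, Cox6a2, Cox7b2, Cox7c, Cox8b, Cox8c, Atp5g2 and Atp5j. Among the 40 genes, Cox7a2l encodes a factor of respiratory supercomplexes and Atp5s a coupling factor of the ATP synthase. Neither is counted among the classical subunits.

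The assay was SLAM-seq, in which RNA made with 4-thiouridine (4sU) shows T-to-C changes in sequencing reads, so that the T-to-C rate measures the labelled share of a transcript. Cells of the WT and YBX1-/- groups (strain C57BL/6, tissue given as bone marrow) all received 50 µM 4sU for 24 h and were then chased with 10 mM uridine. PolyA RNA was taken by TRIzol at 0, 0.5, 1, 3, 6, 12, 18 and 24 h, with 1 library for each genotype and time, 16 in all. YBX1 binds RNA, and by its title the study asks about its part in m6A-dependent mRNA stability in myeloid leukemia. The sources used here do not give how the leukemia was raised, how Ybx1 was deleted or how many animals gave cells. With 1 library per genotype and time, p-values of slopes measure the scatter of time points around a fitted line. Those of genotype differences measure the scatter, over time points, of the gap between the genotypes. Neither measures the scatter between animals.

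Complex II oxidises succinate and passes electrons to ubiquinone. Complex III moves them on to cytochrome c, complex IV hands them to oxygen, and complex V uses the proton gradient built by the chain to make ATP. Most subunits are nuclear-encoded, and their mRNAs are abundant housekeeping transcripts in proliferating blood cells.

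The rate is a share and not an amount. It falls when labelled RNA decays and also when new unlabelled RNA dilutes it, and these cannot be told apart here, so decay and half-life below refer to the label. The depth of each library is unknown, and no unlabelled library was among the samples. The median rate of tested genes in the first hour lay between 42.9% and 49.2% in the WT libraries and between 29.8% and 36.7% in those of YBX1-/-. The YBX1-/- library at 0 h stood apart: 3.64% of tested genes were at 0 there, against 0.0945% in WT at 0 h. Ybx1 itself carried label in both genotypes, from 55.2% at 0 h to 5.08% at 24 h in WT and from 72.0% to 3.08% in the libraries labelled YBX1-/-. A share cannot show how much of the transcript there was. All 11 myeloid markers looked for were above 1 CPM, with a summed CPM of 9620. Of that sum Lyz2 alone gave 7376, and the lowest of the 11, Cebpa, had 17.1. The sums were 3.67 for 7 erythroid, 19.1 for 7 lymphoid, 69.6 for 4 megakaryocyte and 4.90 for 5 stromal markers. The mean CPM is given over all libraries, so markers could not be compared between genotypes.

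Every one of the 40 intervals lay in a 3′ UTR of a transcript of its own gene in the GENCODE annotation of GRCm38, and 38 ended at an annotated transcript end. In 10 of them the interval also held coding bases of a principal transcript, and those of Cox4i1 (exon 3 of 5), Cox5b (exon 3 of 4) and Cyc1 (exon 5 of 7) were wholly coding there. The intervals were short, with a median of 193.5 bases against 1167 for all tested genes, and 27 of the 40 were under 300 bases, where 13.4% of all tested intervals were. They ranged from 3 bases in Atp5e to 4252 bases in Atp5g1. Their T content was close to that of the rest, a median of 28.8% against 29.3%, and their reads were more numerous, a median of 39.0 CPM against 10.4. A hexamer of the polyadenylation signal (AATAAA or ATTAAA, sense strand) was searched in intervals of at least 40 bases that end at an annotated transcript end. It stood in the last 40 bases in 29 of 37 such genes (78.4%) and in 78.7% of 7250 such tested intervals. The signal is in capitals for complex II and for the genes of longest and shortest WT half-life in complexes IV and V. The matching genes of complex III, Uqcrq and Uqcrc1, had neither hexamer in their last 40 bases. Each sequence comes from the 3′ end of the interval used, 5′ to 3′ on the transcript's strand from the GENCODE transcripts of GRCm38.
Sdha, chr13:74322254-74322278, minus strand: gccaAATAAAccctttctcaaagtt
Sdhb, chr4:140979171-140979193, plus strand: atgtAATAAAcatttaagataaa
Sdhc, chr1:171127165-171127189, minus strand: gtgtAATAAAggcttgtgtgctcta
Sdhd, chr9:50596357-50596368, minus strand: tttaAATAAAat
Cox6c, chr15:35931977-35932006, minus strand: tttcAATAAAcagtaattatatggacagta
Cox7a1, chr7:30185997-30186026, plus strand: catcAATAAAtatgctaatctcttgagaac
Atp5c1, chr2:10056030-10056057, minus strand: ttacAATAAAcaacttacaatgagaaaa
Atp5k, chr5:108433247-108433276, minus strand: aacgAATAAAgcttcattgtgtgatgctgt

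Because the study's question concerns m6A, the pentamer GGACT, 1 form of the motif at which m6A is placed, was also searched on the sense strand. It occurred in 12 of the 40 intervals (30%) and in 64.2% of 7396 tested intervals, whose lengths differ. The last 100 bases, a window of equal length, were searched in intervals at least that long that end at an annotated transcript end. It occurred there in 5 of 33 such genes (15.2%) and in 6.40% of 7124 such tested intervals. The pentamer is in capitals in windows of Cox5a, which holds 2, and of Uqcrq, which holds 4 and has 2 shown.
Cox5a, chr9:57532283-57532311, plus strand: tgggcttcctaaGGACTtaactgctattg
Cox5a, chr9:57532381-57532409, plus strand: taatagtaacttGGACTttaataaaggga
Uqcrq, chr11:53428944-53428972, minus strand: taaactacttatGGACTtccctttgtgac
Uqcrq, chr11:53428641-53428669, minus strand: agggtgtcaggtGGACTtgctagacacag
The 12 genes with GGACT had a median label half-life of 4.56 h in WT and 5.13 h in YBX1-/-, and the 28 without it 4.41 h and 5.50 h. Their decay rate differences between genotypes overlapped over nearly their whole range, from -0.07 to 0.19 log2 per h in both sets.

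Label left these transcripts more slowly than it left most genes, in both genotypes. In WT the median rate of the 40 genes went through 45.1%, 49.8%, 47.0%, 32.1%, 25.3%, 8.03%, 2.99% and 1.75% over the 8 times from 0 to 24 h. In the first hour this was within 3.39 percentage points of the median of all tested genes, and at 6 h it was 2.48 times that median, which had fallen to 10.2%. In YBX1-/- the median was 32.0%, 34.2%, 28.7%, 27.4%, 18.7%, 7.34%, 3.39% and 1.58% at the same times. It lay slightly under the median of all tested genes in the first hour and at 3.93 times that median at 6 h. At 6 h, 39 of 40 genes were above the library median in WT and 40 of 40 in YBX1-/-, while at 0.5 h 20 and 15 were.

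**Figure D1:**
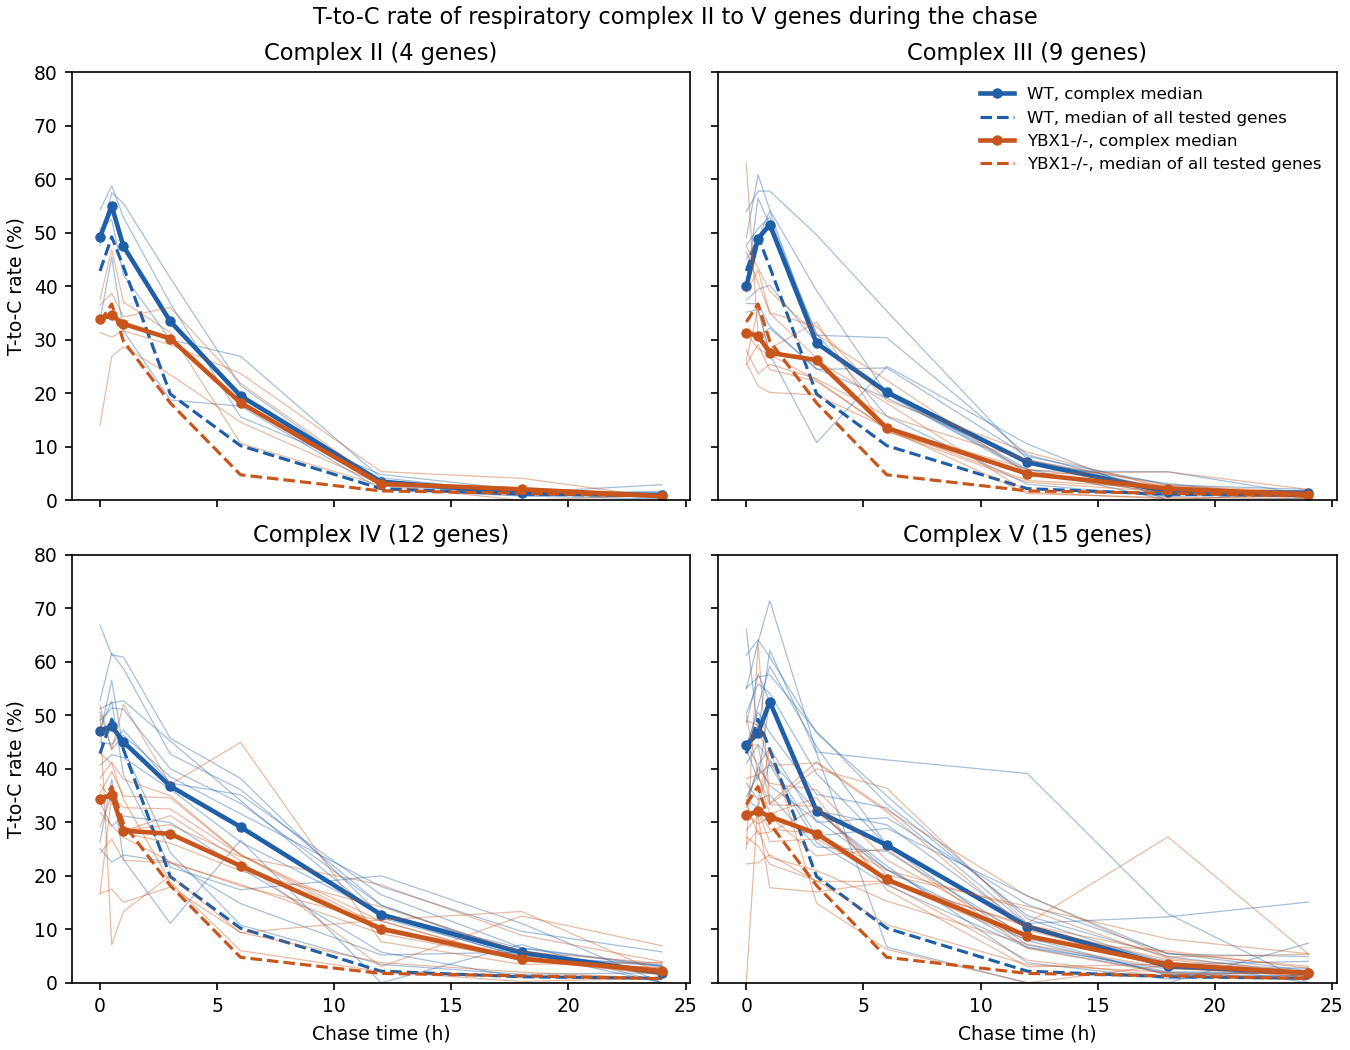
T-to-C rate (%) against chase time (h) for complexes II to V, with thin lines for single genes, thick lines for the median of each complex and dashed lines for the median of all tested genes, in WT (blue) and YBX1-/- (orange). The thick and dashed lines of a genotype start close together in the first hour and are furthest apart from 3 to 12 h, and the lines of complex II approach the dashed lines by 12 h.

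Loss of label over 24 h was tested per gene with a straight line on log2(rate in percent + 0.1) in limma (adjusted p under 0.05 over all tested genes). It was called in 40 of 40 genes in WT, where 94.7% of all tested genes were called, and in 36 of 40 in YBX1-/-, where 92.6% were. The shares of called genes were thus near those of all genes, and the slopes differed. The median half-life, minus 1 divided by the slope, was 4.45 h in WT against 3.71 h for all tested genes with a falling rate, whose quartiles were 3.02 and 4.36 h. In YBX1-/- it was 5.40 h against 4.05 h, with quartiles of 3.49 and 4.69 h. In WT 31 and in YBX1-/- 35 of the 40 genes were above the median of all genes. These are descriptions of a list and no test of the list against other genes was made. Without the YBX1-/- library at 0 h, 36 genes were again called in YBX1-/-, with a median half-life of 5.28 h.

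An exponential decline fitted to the median rate gave a larger gap, 5.23 h (4.74 to 5.54 h when each time point was left out in turn) in WT against 2.76 h for all tested genes. In YBX1-/- it gave 6.21 h (5.89 to 6.59 h) against 2.66 h. Among the 3806 tested genes with at least 10 CPM the same fit gave 2.94 and 2.80 h. A group of 411 other tested genes had an interval under 300 bases and at least 10 CPM. Of the 40 genes, 27 met the first limit and 33 the second. The median rate of the 411 at 6 h was 17.2% in WT and 12.3% in YBX1-/-, between all genes and the respiratory genes. The median straight-line half-lives of the 411 were 4.38 h in WT and 4.68 h in YBX1-/-, against 4.45 and 5.40 h for the 40 genes. The 27 respiratory genes with short intervals had 4.54 and 5.66 h, and the 33 of at least 10 CPM had 4.64 and 5.15 h. By that measure the 411 were close to the 40 genes in WT. The part that short intervals and read numbers play in the slow loss was not tested.

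Set against each gene's own mean over the first hour, the median share of label left at 3 h was 73.3% in WT and 87.8% in YBX1-/-, where all tested genes had 45.0% and 54.7%. At 6 h it was 60.3% and 61.4%, where all tested genes had 22.8% and 14.7%. At 12 h the medians were 20.7% and 22.5% against 4.88% and 5.38%. The share left at 6 h was thus alike in both genotypes for the respiratory genes and lower in YBX1-/- for all genes, a difference that was not tested.

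**Figure D2:**
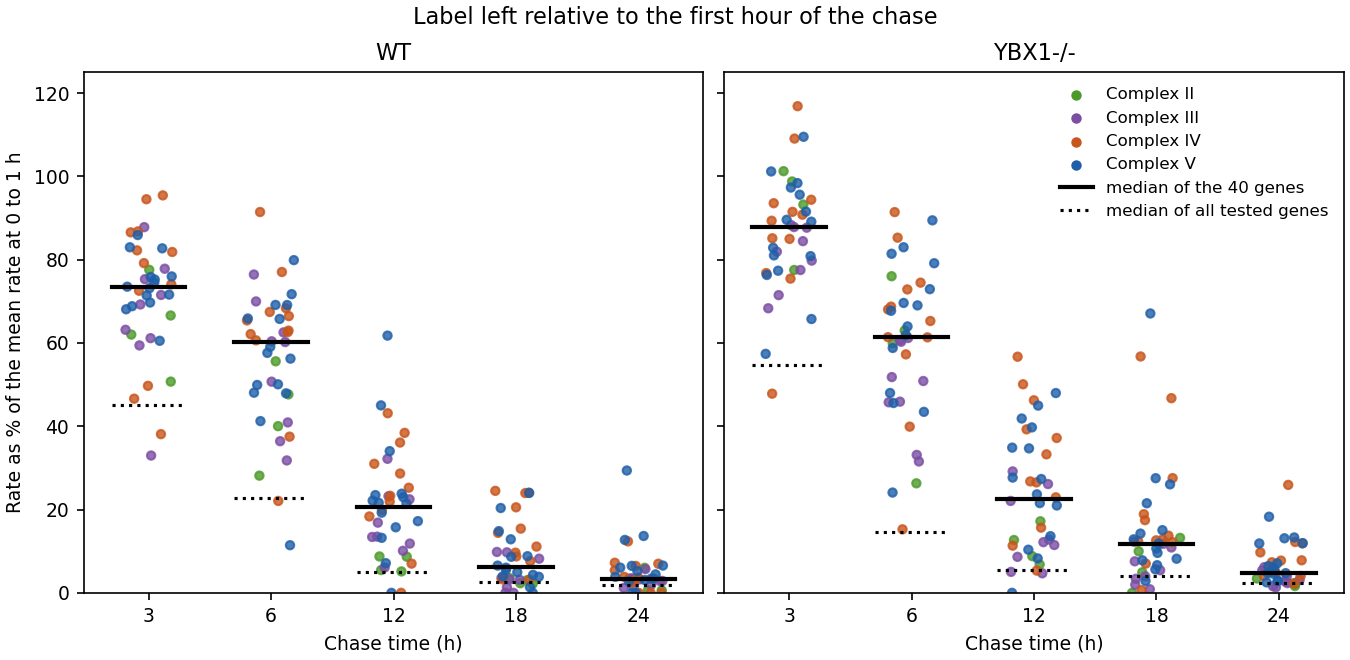
Rate at 3 to 24 h of the chase as a percent of the gene's mean rate at 0 to 1 h, in WT (left) and YBX1-/- (right), with 1 point for each of the 40 genes coloured by complex, a solid bar at their median and a dotted bar at the median of all tested genes. At 6 h the solid bars stand at 60.3% and 61.4% and the dotted bars at 22.8% and 14.7%.

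In WT, complex II lost its label fastest of the 4 complexes. The median half-life of its 4 genes was 3.72 h in WT and 4.25 h in YBX1-/-. Those of complex III (9 genes) were 4.34 and 4.39 h, those of complex IV (12 genes) 4.91 and 6.22 h, and those of complex V (15 genes) 4.85 and 5.99 h. By these straight-line values complex II had the lowest and complex IV the highest median in both genotypes. All 7 genes under 10 CPM were in complexes IV and V. Their median half-lives were 3.44 h in WT and 9.85 h in YBX1-/-, against 4.64 and 5.15 h for the 33 other genes. The part of read number in the longer YBX1-/- medians of complexes IV and V was not tested. In YBX1-/- the place of complex II depended on the measure. The exponential fit there gave 5.27 h for complex II and 5.16 h for complex III, where WT had 3.97 and 4.70 h. Complex II also kept 96.0% of its label at 3 h in YBX1-/-, the most of the 4 complexes, and 61.4% at 6 h against 50.9% for complex III. Single genes of the complexes overlapped, from 3.34 to 4.69 h in complex II and from 3.26 to 7.79 h in complex IV in WT.

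Sdha encodes the flavoprotein subunit of succinate dehydrogenase, which holds the succinate-binding site (ENSMUSG00000021577). Its WT rates were 47.7%, 57.5%, 55.5%, 41.5%, 21.4%, 2.75%, 1.23% and 1.70% from 0 to 24 h. In YBX1-/- they were 36.5%, 38.7%, 34.3%, 36.0%, 21.8%, 3.21%, 1.80% and 0.758%. The genotypes differed in the first hour and met at 6 h. The slopes of -0.25 ± 0.03 log2 per h (SE) in each genotype gave half-lives of 3.99 and 4.05 h. This SE, like those of the other slopes, comes from a spread shared by both genotypes and estimated over all 16 libraries.

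Sdhb encodes the iron-sulfur subunit (ENSMUSG00000009863). Its WT rates were 33.7%, 45.5%, 31.7%, 18.7%, 17.6%, 2.02%, 0.790% and 0.227%. The YBX1-/- rates were 14%, 26.9%, 28.7%, 23.5%, 14.6%, 2.94%, 2.32% and 0.798%. YBX1-/- was the lower genotype up to 1 h and at 6 h and the higher one at 3 h and from 12 h on. The half-lives were 3.34 h in WT and 4.93 h in YBX1-/-. The decay rate difference of 0.077 ± 0.025 log2 per h (SE) did not pass the threshold (limma, adjusted p = 0.244), nor did the labelling level difference of 0.51 ± 0.30 log2 (adjusted p = 0.779).

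Sdhc and Sdhd encode the membrane anchors that carry the complex's haem (ENSMUSG00000058076 and ENSMUSG00000000171). Sdhc had WT rates of 50.7%, 52.5%, 42.1%, 30.0%, 26.9%, 4.20%, 1.46% and 2.91%, and YBX1-/- rates of 31.4%, 30.5%, 31.7%, 29.1%, 23.7%, 5.36%, 4.12% and 0.508%. Its half-lives, 4.69 and 4.46 h, were close. Sdhd had WT rates of 54.3%, 58.8%, 52.9%, 36.8%, 15.6%, 4.83%, 1.96% and 0.351%. The YBX1-/- values were 37.5%, 46.9%, 37.1%, 31.4%, 10.6%, 2.76%, 0% and 0.945%, below WT at 7 of 8 times. Relative to the library medians, Sdhd was higher in YBX1-/- at 4 times and lower at 4. Its half-life of 3.18 h in YBX1-/- was the shortest of the 40 genes in that genotype.

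In complex III the 9 genes spanned a narrow range. The longest WT half-life was that of Uqcrq, the small ubiquinone-binding protein of the complex (ENSMUSG00000044894, interval of 1134 bases on chromosome 11). Its WT rates were 36.8%, 36.7%, 32.5%, 24.5%, 24.7%, 8.20%, 2.90% and 2.01%. In YBX1-/- they were 28.0%, 23.7%, 25.4%, 22.7%, 15.7%, 7.50%, 2.80% and 1.59%. YBX1-/- was lower at all 8 times. Relative to the library medians it was higher at 4 and lower at 4. The slopes of -0.18 ± 0.02 and -0.17 ± 0.02 log2 per h gave half-lives of 5.44 and 5.78 h.

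The shortest was that of Uqcrc1, a core protein of the complex (ENSMUSG00000025651). Uqcrc1 was measured on 246 bases, of which 124 were coding and 0 were 3′ UTR in a principal transcript. Its WT rates were 35.1%, 35.7%, 27.3%, 10.8%, 25%, 10.5%, 0% and 0.384%. The rates in YBX1-/- were 25.4%, 29.2%, 24.4%, 22.2%, 13.4%, 1.23%, 0.514% and 0.351%. The WT course was uneven, with a lower rate at 3 h than at 6 h. The half-lives were 3.21 and 3.54 h, and the decay rate difference was 0.008 ± 0.060 log2 per h. The other 7 genes lay between them in WT, among them Cyc1 (cytochrome c1), Uqcrfs1 (the Rieske iron-sulfur protein) and Uqcrc2 (the other core protein). At 12 h the complex III median was 7.10% in WT and 4.95% in YBX1-/-, against 12.8% and 10.1% for complex IV.

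Among the 33 genes of at least 10 CPM, Cox6c of complex IV had the longest half-life in both genotypes. This gene of a small membrane subunit (ENSMUSG00000014313) had WT rates of 50.6%, 43.6%, 46.3%, 38.5%, 31.6%, 18.0%, 9.62% and 5.78%. The YBX1-/- rates were 33.3%, 35.1%, 28.5%, 29.6%, 23.6%, 18.3%, 8.90% and 3.95%. The genotypes were apart in the first hours and close at 12 and 18 h, with half-lives of 7.79 and 8.41 h. The slopes were -0.13 ± 0.01 and -0.12 ± 0.01 log2 per h, and the decay rate difference of -0.011 ± 0.019 did not pass the threshold (adjusted p = 0.868).

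Cox4i1, the subunit through which ATP is known to slow the enzyme (ENSMUSG00000031818), had a WT course of 33.7%, 29.3%, 31.2%, 30.0%, 21.4%, 5.76%, 0.997% and 0.810%. In YBX1-/- it was 24.3%, 26.8%, 22.9%, 22.4%, 18.4%, 9.18%, 4.31% and 1.54%. On this interval YBX1-/- was the lower genotype up to 6 h and the higher one from 12 h on. On 2 of its 3 other covered intervals YBX1-/- was still lower at 12 h (8.13% against 10.7%, and 6.86% against 13.2%), and it was higher from 18 h on in all 4. Relative to the library medians the level was 0.58 ± 0.25 log2 higher in YBX1-/-, the smallest p of the 40 genes for a higher level, and it did not pass the threshold (adjusted p = 0.779).

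The genes of 1 subunit differed in level. Per kilobase of interval, Cox4i1 had 711 CPM and Cox4i2, the lung isoform, 0.339. Cox6a1 had 445 and the heart and muscle isoform Cox6a2 1.49, and Cox6b1 had 466 against 12.9 for the testis isoform Cox6b2. Cox7a2 had 830, against 25.6 for the heart and muscle isoform Cox7a1 and 39.9 for Cox7a2l. Cox8a had 328 and Cox7b 160, and Cox8b, Cox8c and Cox7b2 were listed at 0. On these intervals the broadly expressed isoform was the higher one in each pair. The Cox4i1 interval was wholly coding in a principal transcript and that of Cox4i2 wholly 3′ UTR. Their 2 values are thus not a like comparison. Intervals of a few bases count reads that reach beyond them, so these levels are approximate.

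Cox7a1 (ENSMUSG00000074218, 1.61 CPM) had the shortest WT half-life of complex IV. Its WT rates were 26.3%, 38.1%, 23.1%, 11.1%, 26.7%, 0%, 7.14% and 0%, and its YBX1-/- rates 50.0%, 7.14%, 13.3%, 20.0%, 9.38%, 11.8%, 13.3% and 1.72%. The values jumped between neighbouring times in both genotypes, and the half-lives of 3.26 and 9.99 h carry that scatter. The YBX1-/- slope of -0.10 ± 0.07 log2 per h was not called (adjusted p = 0.185).

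Cox7a2l, the supercomplex factor (ENSMUSG00000024248), had WT rates of 46.7%, 56.5%, 43.8%, 24.3%, 10.8%, 3.44%, 1.60% and 1.88%. In YBX1-/- they were 42.9%, 41.0%, 34.3%, 18.8%, 6.01%, 2.11%, 0.253% and 0.881%. YBX1-/- was lower at all 8 times, and 6.01% was the lowest of the 40 genes at 6 h in that genotype. Relative to the library medians, YBX1-/- was higher at 3 times and lower at 5. The half-lives were 4.48 and 3.61 h. The decay rate difference of -0.074 ± 0.029 log2 per h had the smallest p among genes with a negative difference. It did not pass the threshold (limma, adjusted p = 0.315).

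Cox5a, an enzyme subunit on the matrix side, had the highest rate of the 40 genes at 0 h in WT, 66.9%, and at 6 h in YBX1-/-, 44.9%. These values hold for the 145 bases used. On its other interval, of 10 bases and nearly the same read number (36.3 against 38.3 CPM), they were 43.2% and 14.6%. At 12 h Cox5a was at 12.6% in WT and 7.69% in YBX1-/- on the 145 bases, below the complex IV medians. Cox7c, just under the CPM minimum at 0.929, had WT rates from 56.2% at 0 h to 14.3% at 24 h, and Cox7a1 and Atp5l (1.09 CPM) were just above it.

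In complex V the F1 head is built from alpha (Atp5a1), beta (Atp5b), gamma (Atp5c1), delta (Atp5d) and epsilon (Atp5e) subunits. Atp5c1, the rotating shaft (ENSMUSG00000025781, 5.93 CPM), had the longest WT half-life of the 40 genes. Its WT rates were 43.2%, 51.8%, 59.2%, 44.1%, 25.7%, 11.1%, 12.3% and 15.1%. YBX1-/- cells had 44.4%, 44.4%, 33.6%, 41.3%, 32.3%, 16.2%, 4.84% and 5.35%. The WT rate did not fall after 12 h, and 15.1% at 24 h was the highest of the 40 genes there. The half-lives were 10.7 and 7.02 h. The decay rate difference of -0.069 ± 0.033 log2 per h did not pass the threshold (adjusted p = 0.439) and turned positive over 0 to 12 h (0.081) and over 0 to 6 h (0.19).

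Atp5e (ENSMUSG00000016252) was measured on an interval of 3 bases with 1 T. Its WT rates were 34.2%, 32.8%, 41.4%, 27.5%, 28.9%, 16.3%, 5.35% and 4.93%, and its YBX1-/- rates 22.2%, 22.5%, 23.9%, 18.9%, 19.0%, 7.97%, 5.96% and 2.71%. Its other interval, of 150 bases, gave 31.7% in WT and 18.4% in YBX1-/- at 6 h, close to the values on 3 bases, and was further from them at some other times. In WT it gave 23.2% at 12 h and 12.0% at 18 h, and in YBX1-/- 28.9% at 3 h and 5.77% at 24 h. On the 3 bases the half-lives were 7.70 and 7.99 h, second to Cox6c in each genotype among the 33 genes of at least 10 CPM, and the level difference was -0.25 ± 0.16 log2 (adjusted p = 0.779).

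Atp5d (ENSMUSG00000003072) had WT rates of 34.8%, 38.8%, 40.8%, 26.2%, 18.3%, 6.56%, 1.89% and 1.69%. In YBX1-/- they were 27.3%, 25.6%, 22.2%, 19.1%, 10.9%, 3.40%, 1.95% and 0.627%, lower at 7 of 8 times. Relative to the library medians, Atp5d was higher in YBX1-/- at 2 times and lower at 6. Its level difference of -0.30 ± 0.19 log2 had the smallest p among genes with a lower level and did not pass the threshold (adjusted p = 0.779).

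The stalk and membrane parts include Atp5f1 (subunit b), Atp5h (d), Atp5o (the oligomycin sensitivity protein), Atp5j2 (f), Atp5k (e), Atp5l (g) and the c ring of Atp5g1, Atp5g2 and Atp5g3. The 3 c-ring genes encode the same mature protein and differ in their untranslated and presequence parts. Per kilobase of interval Atp5g3 had 147 CPM and Atp5g2 0.592. The Atp5g2 interval held no coding or 3′ UTR base of a principal transcript, while that of Atp5g3 lay wholly in a principal 3′ UTR. The 2 values are thus not a like comparison of the genes' levels. Atp5g1 had 9.48 on its interval of 4252 bases and 342 on the 117 bases inside it that held 40.1 of its 40.3 CPM, so its place relative to Atp5g3 depended on the interval. Label half-lives were 4.78 h in WT and 5.15 h in YBX1-/- for Atp5g1, and 5.23 and 4.96 h for Atp5g3, close to each other in both genotypes.

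Atp5k (ENSMUSG00000050856, 5.80 CPM) had WT rates of 43.8%, 37.9%, 52.9%, 32.1%, 29.5%, 10.5%, 3.95% and 0%. Those of YBX1-/- were 33.3%, 27.8%, 28.2%, 32.6%, 20.2%, 14.3%, 8.20% and 5.44%. YBX1-/- was lower up to 1 h and at 6 h, and higher at 3 h and from 12 h on. The half-lives were 3.18 h in WT, the shortest of the 40 genes, and 9.38 h in YBX1-/-. The decay rate difference of 0.19 ± 0.05 log2 per h had the smallest p of the 40 genes and did not pass the threshold (adjusted p = 0.155). It passed without the 18 h time point (0.24, adjusted p = 0.0368), and without the 24 h time point, where the WT rate was 0, it was 0.059.

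Atp5h (ENSMUSG00000034566, 8.08 CPM) had WT rates of 32.9%, 40.5%, 36.9%, 30.4%, 21.2%, 7.87%, 1.59% and 1.25%. In YBX1-/- they were 28.6%, 31.1%, 17.8%, 17.0%, 18.8%, 10.8%, 5.56% and 3.08%. As in Atp5k, YBX1-/- was the lower genotype early and the higher one from 12 h on, and the half-lives were 4.54 and 8.10 h. The decay rate difference was 0.077 ± 0.022 log2 per h (adjusted p = 0.194).

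**Figure D3:**
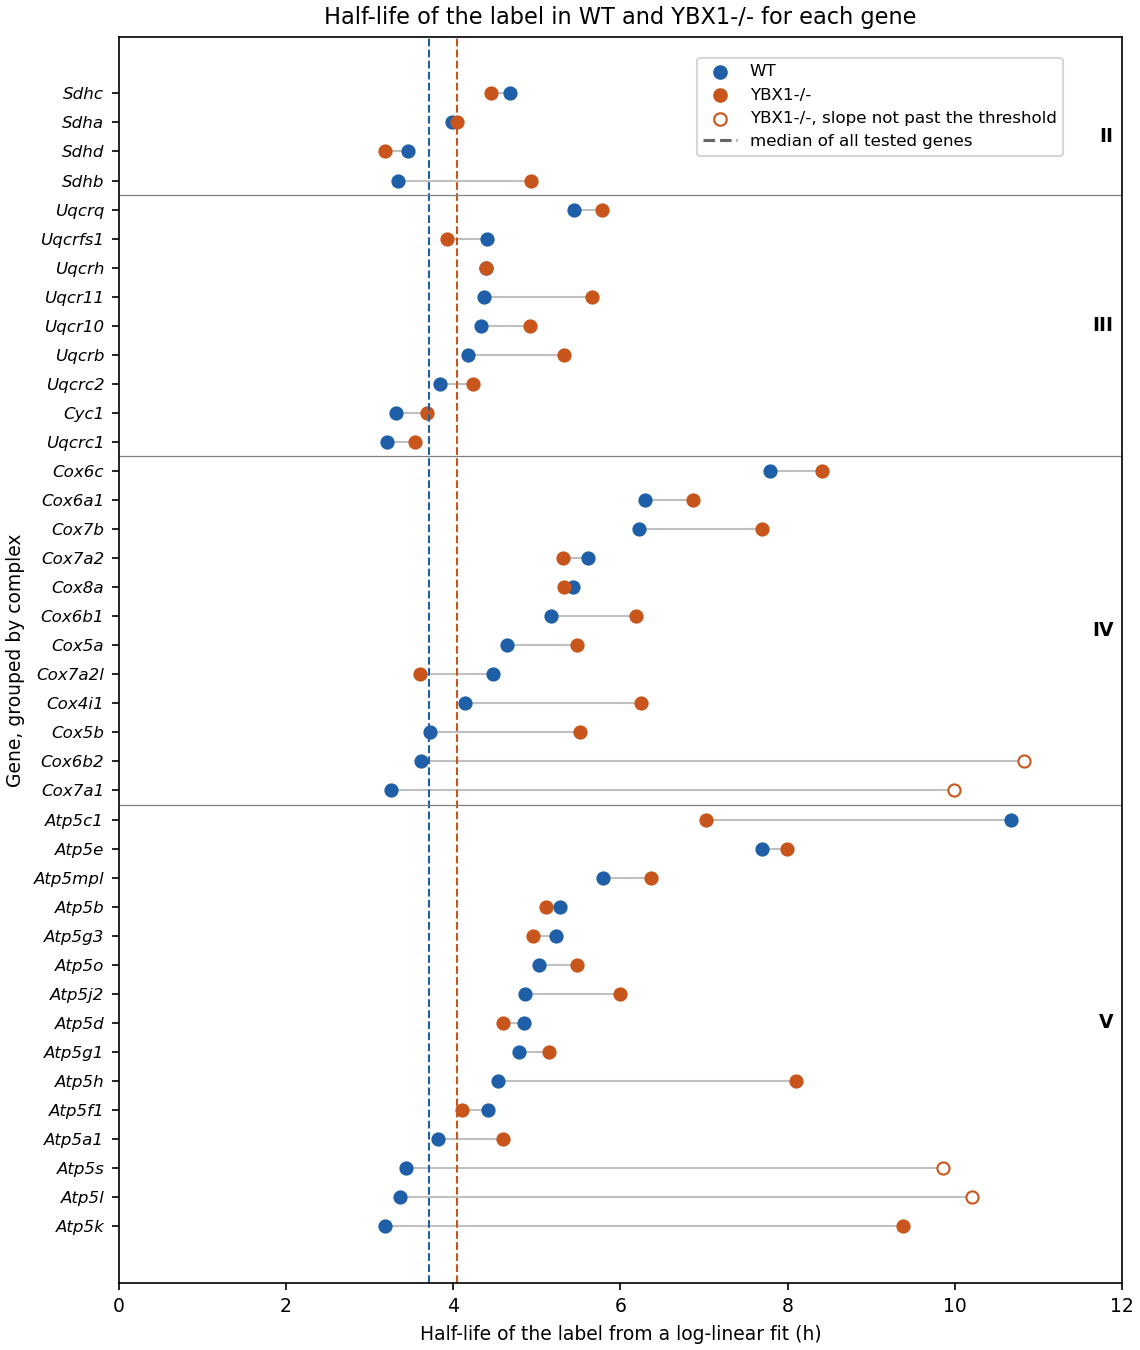
Half-life of the label (h) for each of the 40 genes in WT (blue) and YBX1-/- (orange), grouped by complex and sorted by WT half-life, with dashed lines at the medians of all tested genes (3.71 and 4.05 h) and open circles where the slope was not past the threshold. Most points of complexes IV and V lie right of the dashed lines, and Cox7a1, Cox6b2, Atp5s, Atp5l and Atp5k have the widest gaps between genotypes.

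No gene of the 40 passed the threshold for a decay rate difference between YBX1-/- and WT (limma, interaction of genotype and hours on values centred on the library median), where 0.108% of all tested genes did. At an unadjusted p under 0.05 there were 6 (15% of the 40, against 12.5% of all tested genes), and the smallest adjusted p was 0.155. Without the 0 h time point no gene passed either, and 4 had an unadjusted p under 0.05 (10%, against 9.96%). Both shares were near those of all tested genes. The differences were positive in 20 genes and negative in 20, with a median of -0.00018 log2 per h against 0.0037 for all tested genes. A positive value means slower loss in YBX1-/- relative to the library median. On uncentred rates, the half-life was longer in YBX1-/- in 28 of the 40 genes. The difference fitted without centring was positive in 28 genes (70%), against 65.7% of all tested genes. The 6 genes were Atp5k, Atp5h, Sdhb, Atp5l and Cox4i1 with positive values and Cox7a2l with a negative one.

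Large differences went with few reads. The 7 genes under 10 CPM (Atp5c1, Atp5h, Atp5k, Atp5l, Atp5s, Cox6b2 and Cox7a1) had a median difference of 0.17, with 6 of 7 positive, and held 9 of the 13 zero rates among 640 values. The other 33 had a median of -0.0057, with 14 positive and a range from -0.074 in Cox7a2l to 0.077 in Sdhb. The 4 genes whose loss of label was not called in YBX1-/-, Atp5l, Atp5s, Cox6b2 and Cox7a1, were all among the 7. In WT at 24 h the rates of Atp5k, Atp5l, Cox6b2 and Cox7a1 were 0, and without that time point the differences of Atp5l and Cox6b2 went from 0.18 and 0.16 to 0.023 and -0.034, while that of Cox7a1 was 0.19 in both. The part of read number in these differences was not tested.

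**Figure D4:**
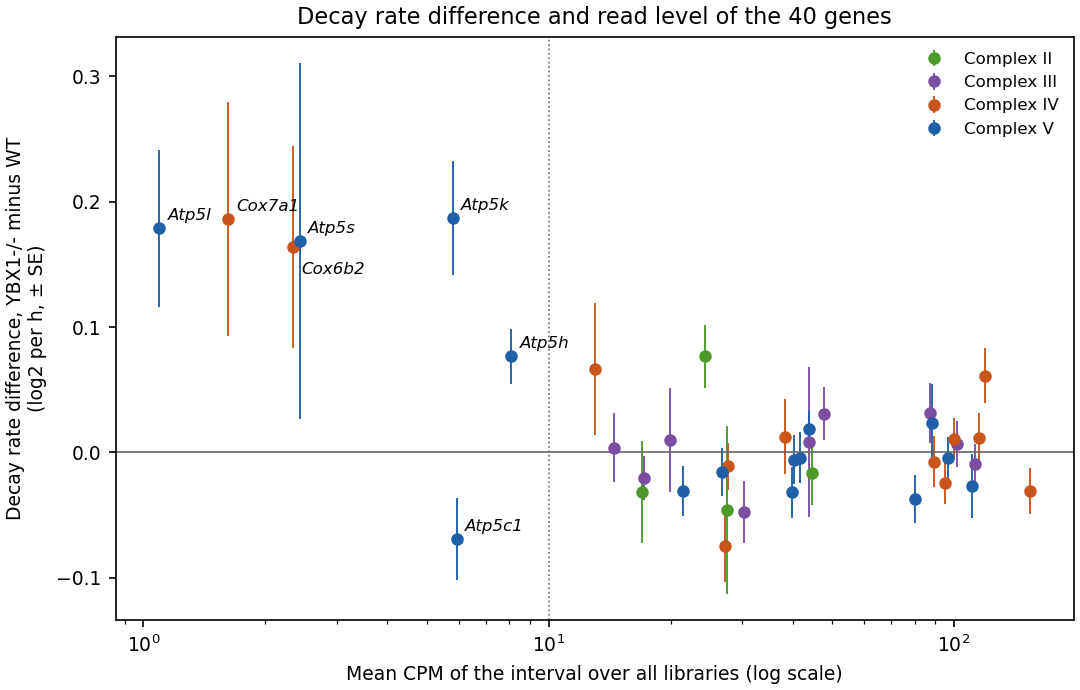
Difference in decay rate between YBX1-/- and WT (log2 per h, with SE bars) of each gene against the mean CPM of its interval on a log scale. Points are coloured by complex, with a dotted line at 10 CPM. The values are centred on the library median, so a positive one means slower loss in YBX1-/- relative to that median. The named genes left of the line spread from -0.069 to 0.19 and the 33 genes right of it from -0.074 to 0.077.

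The order of the genes by half-life was shared between the genotypes where reads were numerous. Across the 33 genes of at least 10 CPM the label half-lives in WT went with those in YBX1-/-, with a rho of 0.670 (Spearman) and an r of 0.828 (Pearson), and across all 40 the rho was 0.188. The points are genes measured in the same libraries and are not independent. Between the WT and YBX1-/- rates of the 40 genes at a given time the rho was 0.891 at 0.5 h, between 0.607 and 0.838 from 1 to 18 h, 0.421 at 0 h, where the YBX1-/- library stood apart, and 0.226 at 24 h, the lowest.

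The labelling level relative to the library median was called in 0 of 40 genes, as in 0.0% of all tested genes (limma), with 1 gene at an unadjusted p under 0.05 (2.5%, against 5.60% of all tested genes). It was higher in YBX1-/- in 23 and lower in 17, with a median difference of 0.02 log2. Without the centring on the library median, the rates were lower in YBX1-/- in 33 genes (82.5%), with a median of -0.33 log2, against 73.0% of all tested genes with a median of -0.34.

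As plain rates, the 40 genes were lower in YBX1-/- early in the chase, and so were most genes. The number lower in YBX1-/- was 37 of 40 in the 0 h libraries (75.0% of all tested genes), 39 after 0.5 h (85.5%), 40 after 1 h (87.5%) and 32 after 3 h (59.1%). It was 35 after 6 h (86.0%), 28 after 12 h (54.6%), 19 after 18 h (41.0%) and 25 after 24 h (49.4%). The median gap widened from -10.8 percentage points at 0 h to -17.9 at 1 h and was -6.77 at 6 h. On the log2 scale the gap at 6 h was -0.52 for the 40 genes and -0.95 for all tested genes, and at 1 h it was -0.63 and -0.55.

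Over 0 to 6 h only, the decay rate difference was positive in 39 of 40 genes, with a median of 0.099 log2 per h. Among all tested genes 55.8% were positive, with a median of 0.025. No gene passed the threshold in this window, where 3 residual degrees of freedom are left, and 7 of the 40 had an unadjusted p under 0.05 (17.5%, against 16.6% of all tested genes). The value is relative to a library median that fell further in YBX1-/- by 6 h. On the uncentred rates the median half-life of the 40 genes over this window was 7.57 h in WT and 8.60 h in YBX1-/-, and that of all tested genes was 2.57 and 2.12 h.

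The assembly factors and electron carriers of the same pathway, listed apart from the subunits, had no call for either difference. Loss of label was called in 4 of 4 tested factors of complex II, 5 of 5 of complex III, 14 of 15 of complex IV and 3 of 3 of complex V in WT, and in 4, 5, 15 and 3 in YBX1-/-. Their median half-lives were 3.81 and 3.82 h for complex II, 3.52 and 3.72 h for complex III, 4.23 and 4.07 h for complex IV and 2.88 and 4.80 h for complex V. Among the assembly factors Fmc1, a complex V factor, had the smallest p for a decay rate difference, at 0.19 ± 0.05 log2 per h (adjusted p = 0.160). Cycs, which encodes cytochrome c, the carrier between complexes III and IV, had half-lives of 2.80 and 4.75 h and a difference of 0.13 ± 0.03, with a smaller p than Fmc1 (adjusted p = 0.141). Among 7 tested regulators of mitochondrial gene expression and biogenesis, Gabpa, a factor that binds promoters of respiratory genes, had the smallest p, with a difference of -0.078 ± 0.018 (adjusted p = 0.147). The genes encoded in mitochondrial DNA were not analysed here.

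A gene's value depended on the interval used. Of the 40 genes, 25 had more than 1 interval and 13 had another of at least 1 CPM that did not overlap the one used. For Cox4i1 the rate at 6 h in WT was 21.4% on the interval used and 27.6%, 22.2% and 23.8% on 3 others. For Cox5b it was 14.8% on 39 coding bases and 34.2% on 372 bases further downstream. For Cyc1 it was 20.2% against 16.3%, 9.43% and 6.90%. Uqcr11 had 19.1% on its 159 bases and 30.2% on another 30.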

How the data were processed

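T-to-C rates were deposited by the authors as a fraction from 0 to 1 per interval and library, and were put on a percent scale here. The denominator (reads or covered Ts) and the counting program are not given in the sources used here. Mean CPM and a coverage signal on Ts were deposited as the authors' means over libraries, per the file headers. HISAT2 2.1.0, CASAVA and the human build GRCh38 are named in the submitters' processing notes. The intervals were checked against mouse GRCm38 transcripts (GENCODE): 7396 of 7411 tested intervals could be read there, and in all 7396 the number of Ts equalled the deposited one. Of 21177 gene identifiers, 21148 matched a symbol.

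Per gene the interval of highest mean CPM was used. Rates were analysed as log2(percent + 0.1) with limma 3.58.1 (R 4.3.3, trend), with Benjamini-Hochberg adjustment over 7411 genes and a threshold of 0.05. Slopes of both genotypes were fitted together, with a shared spread and 12 residual degrees of freedom. Genotype differences used values minus the library median, with time as a factor. The added 0.1 shrinks differences near 0, and a rate of 0 can mean no reads or no conversions. The models were tested on simulated data. The genes, lists and tests were chosen with earlier results of these data known. Named are complex II, the longest and shortest WT half-life per other complex (rate above 0 in at least 14 libraries), the smallest p in each direction and the isoform pairs. Other genes, such as Cox5a, were chosen after their values were seen. Alternatives were other added values, filters, intervals and time windows, each time point left out in turn, and no centring.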

Additional observations from a re-analysis of the deposited data

How the results depend on the processing

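Loss of label was called in 39 to 40 of 40 genes in WT and in 36 to 38 in YBX1-/- when each time point was left out in turn, and with the library median subtracted in 0 and 0, since the median slopes relative to it were 0.033 and 0.052 log2 per h. The count of decay rate differences ranged from 0 to 1 over those fits, the 1 being Atp5k, and the count of level differences was 0 in every alternative. The median WT half-life was 4.87 h with 0.5 added, 4.78 h with rates above 0 in all libraries, 5.25 h over 0 to 12 h, 7.57 h over 0 to 6 h and 5.23 h with the exponential fit, and ranged from 4.35 to 4.76 h over the fits without 1 time point. In YBX1-/- it was 5.66 h with 0.5 added, 8.60 h over 0 to 6 h, 6.21 h with the exponential fit and 5.15 h for genes of at least 10 CPM, and ranged from 5.28 to 5.62 h. The cause of these shifts was not tested. The differences of Atp5c1 turned to 0.081 over 0 to 12 h and 0.19 over 0 to 6 h, and that of Cox7a2l to 0.0035 over 0 to 6 h. The 0 to 6 h half-lives, the 10 CPM group and the group without coding bases were chosen after seeing the data. The fits of the genotype differences set the genotypes against each other at each time point, and no block by replicate number could be added, since each genotype and time point has 1 library. Without a depth per library no limit can be set on rates near 0.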
